A study of Mus musculus with 15 samples.

Results

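Macrophages treated with lipopolysaccharide (LPS) for 2 h were compared with untreated macrophages. The comparison rests on the 3 LPS 2 h libraries and the 3 untreated libraries, 6 of the 15 libraries in the series, chosen by their labels. The cells were primary macrophages grown from the bone marrow of C57BL/6 mice and taken on day 7 of differentiation. All of them were raised in medium conditioned by L929 cells, a fibroblast line. LPS was given at 10 ng/ml, and the untreated cells received none. The remaining libraries, from cells given the same dose for 30 min, 1 h or 4 h, are used here to place the 2 h values in time. The labels do not give the culture or animal behind each replicate. Each p-value therefore covers the variation among these libraries alone, and that variation may be technical.

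Sequencing was of RNA bound to chromatin. This part of the RNA is rich in transcripts still being made and so lies closer to transcription than RNA of whole cells does. LPS is a component of the outer membrane of Gram-negative bacteria and is sensed by Toll-like receptor 4. Genes of the primary response are switched on by factors already present in the cell, such as NF-kB. Genes of the secondary response follow later and often need proteins made in the first wave, among them interferon beta, or remodelling of nucleosomes at their promoters. Many genes of resting macrophages are turned down as the response proceeds.

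The features measured are transcripts named by Ensembl identifiers. Those identifiers are not paired with gene symbols in the files, and 0 of the 113193 matched the 49997 genes of the reference table used here. Genes of the primary and secondary response are therefore not named, the fixed lists of pathway genes and cell type markers are not analysed here, and the identity of the cells was not checked against markers. The response is described through the size, timing, level and length of the transcripts that changed, with a pair of identifiers in each direction.

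The 6 libraries held 7774234 to 11892599 estimated counts. The most abundant of all transcripts, ENSMUST00000217116.1 with 3756 nt, is described because of its level and took 11.1%, 29.2% and 12.3% of the counts at 2 h, and 11.9%, 17.5% and 34.8% in untreated cells (replicates 1, 2 and 3). Its share differed more between libraries of one group than between the groups, with a difference of -3.81 percentage points at 2 h (exact permutation test, two-sided p = 0.6, where 0.1 is the smallest the design allows). Without untreated replicate 3 that difference was 2.90 percentage points. Shares of counts below leave this transcript out. In bulk samples such as these, fewer cells of a type and less RNA per cell cannot be told apart.

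After 2 h of LPS many transcripts had changed, in both directions. Of 46186 transcripts tested, 2964 (6.42%) were raised and 1412 (3.06%) lowered at 2 h relative to untreated cells (edgeR quasi-likelihood test on all 15 libraries with the replicate number as a block, adjusted p under 0.05). The median rise of the 2964 was 2.35 on the log2 scale, with quartiles of 1.65 and 3.49. It was 2.34 once any transcript without counts in untreated libraries was given the bound set by 3 counts per library. Rises of at least 4-fold were estimated for 1819 of them, and of at least 16-fold for 564. The 1412 lowered transcripts had a median of -2.08 on that scale (-2.06 at the bound), with 745 of them at least 4-fold down and 193 at least 16-fold down. Over all transcripts tested the median was -0.04, with quartiles of -0.90 and 0.77. Called changes are selected to be large, so that these medians do not describe the whole response. Leaving out single 2 h or untreated libraries gave 1287 to 2305 raised and 366 to 1029 lowered. All of these counts were below those of the main fit, and the lowest came without untreated replicate 2. Leaving out a 1 h library, which is in neither group, gave 2501 to 2741 raised and 1009 to 1155 lowered.

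**Figure D1:**
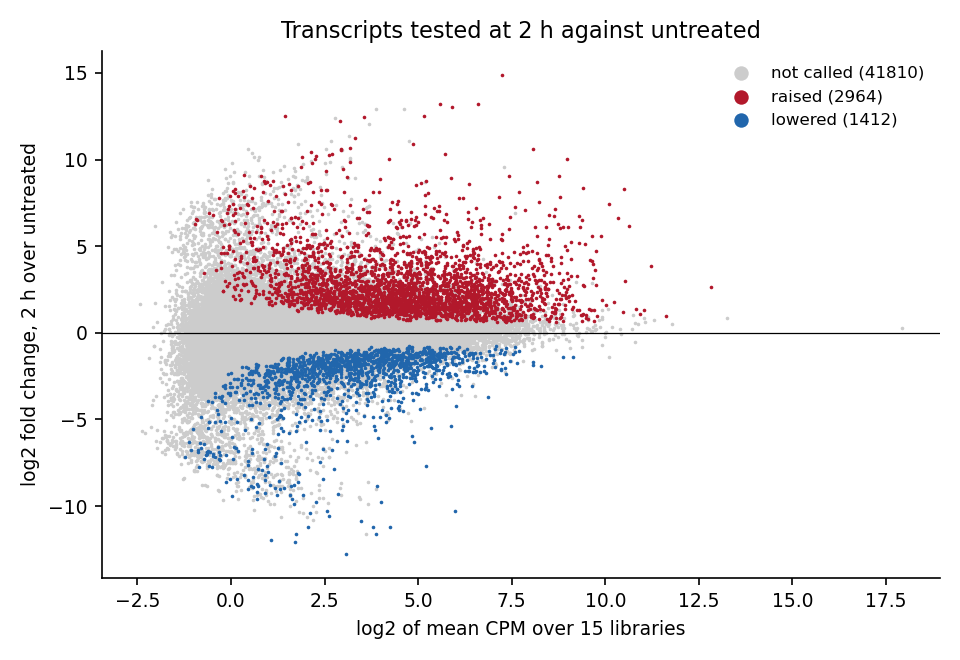
Each point is a transcript tested at 2 h against untreated. The horizontal axis is the log2 of its mean CPM over 15 libraries and the vertical axis its fitted log2 fold change, 2 h over untreated. The 2964 raised and 1412 lowered transcripts are coloured, and the median over all transcripts tested is -0.04.

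The median level of the raised set was 35.4 CPM (TMM scaled CPM, that is, counts relative to an effective library size) at 2 h and 6.87 CPM in untreated cells, and that of the lowered set 3.57 CPM at 2 h and 15.4 CPM in untreated cells. Among the raised, 81 had no count in any untreated library, and among the lowered, 93 had none in any 2 h library. The same was not counted over all transcripts tested, so these numbers are not read as unusual. Kallisto divides reads among the isoforms of a gene, and a change of isoform and a change of the whole gene cannot be told apart here.

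The changes seen in 2 pairs of same-numbered libraries were looked for in the third pair, which had no part in calling them. Each pair was left out in turn, and the test was repeated on the others. Of the transcripts called raised without the 2 h and untreated libraries of replicate 1, 835 of 837 were also higher in the left-out pair, with a median log2 ratio of 2.65. The same was seen for 788 of 795 without replicate 2 (median 3.04) and for 1320 of 1371 without replicate 3 (median 2.34). For lowered transcripts the counts were 149 of 152 (median -2.33), 145 of 154 (median -2.40) and 503 of 555 (median -1.26). Only called transcripts that were also among the 46186 tested are counted here, which leaves out 1 of the 153 lowered without replicate 1 and 1 of the 1372 raised without replicate 3. Over all transcripts tested, 45.7% to 48.7% were higher in the left-out pair and 47.8% to 50.9% lower. The median ratio was smallest in size in pair 3 in both directions, although the transcripts called differ between the rounds. The log2 ratios of the pairs correlated with Pearson's r of 0.699 for pairs 1 and 2, 0.58 for pairs 1 and 3 and 0.551 for pairs 2 and 3 (12871 transcripts with a mean of at least 10 CPM; Spearman's rho 0.772, 0.611 and 0.567). These are correlations across transcripts, which are not independent replicates.

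The number of calls and their balance depended on the fit. With only the 6 libraries compared, edgeR called 0 transcripts, although 9163 of 38213 had an unadjusted p under 0.05, so the calls rest on the spread shared by all 15 libraries. Of the calls, 67.7% were raised with TMM scaling and 62.4% with DESeq2 size factors, against 44.8% under library size alone and 32.4% when ENSMUST00000217116.1 was left out of that size. The share was 53.5% by the DESeq2 test and 31.0% by limma, run on log2(TPM + 1). Over all transcripts tested, the median change on the log2 scale moved to -0.49 under library size alone and to -0.57 when ENSMUST00000217116.1 was left out of it, so that raised and lowered are to be read relative to the typical transcript.

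The steepest rises and falls were followed in every library, as shown in the plot of named transcripts. They were taken by fitted fold change among the 2343 raised and 898 lowered transcripts that averaged 10 CPM or more in one of the groups and kept one direction in all 3 pairs. ENSMUST00000198803.1 (1836 nt) stood at 387, 277 and 160.5 CPM in the 2 h libraries, against 0 in each untreated library. All 2 h libraries lay above every untreated one, and the mean of 274.7 ± 113 CPM (SD, n = 3) was at least 1050-fold higher than 3 counts per untreated library (edgeR adjusted p = 0.0173). In cells treated for less than 2 h its level was uneven, with 0.272, 85.5 and 0.277 CPM at 30 min and 28.8, 87.7 and 20.8 CPM at 1 h. The 1 h libraries all lay below the 2 h libraries, but the direct test of 2 h against 1 h gave a log2 fold change of 3.05 ± 1.56 (SE, edgeR adjusted p = 0.363). At 4 h it reached 615.5, 179.6 and 424.2 CPM.

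ENSMUST00000199183.4 (2343 nt) had 60.3, 87.9 and 104.5 CPM at 2 h, and 0 in each untreated library. Its mean of 84.2 ± 22.3 CPM (SD, n = 3) was at least 321-fold higher (edgeR adjusted p = 0.00396). Levels of 0.34, 14.7 and 0.138 CPM at 30 min and of 5.45, 33.4 and 8.90 CPM at 1 h preceded it, and 120.8, 208 and 75.1 CPM followed at 4 h. Both raised transcripts had their lowest mean level under LPS at 30 min, where replicate 2 was the highest of the 3 libraries. Against 1 h, the rise of ENSMUST00000199183.4 was 3.08 ± 1.00 on the log2 scale (SE, edgeR adjusted p = 0.141).

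ENSMUST00000144754.7 (5946 nt) had no count in any 2 h library, against 28.4, 29.5 and 24.5 CPM in untreated cells. It was at least 84.6-fold lower at 2 h (edgeR adjusted p = 0.0337). Earlier levels were uneven, with 17.9, 0 and 16.7 CPM at 30 min and 6.79, 0 and 0 CPM at 1 h. It stood at 3.04, 0 and 0.155 CPM at 4 h. ENSMUST00000159690.7 (4132 nt) also had no count at 2 h, but its untreated level rested on 1 library, with 2.29, 29.9 and 3.70 CPM. Its untreated mean of 11.96 ± 15.5 CPM (SD, n = 3) made it at least 36.8-fold lower (edgeR adjusted p = 0.044), and without untreated replicate 2 the edgeR adjusted p was 0.202. Its levels were 11.4, 0 and 0 CPM at 30 min, 1.88, 0 and 0.231 CPM at 1 h, and 0.487, 0 and 0 CPM at 4 h. The call of ENSMUST00000144754.7 was lost in 11 of 22 alternative fits, that of ENSMUST00000159690.7 in 14, that of ENSMUST00000198803.1 in 6 and that of ENSMUST00000199183.4 in 1.

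**Figure D2:**
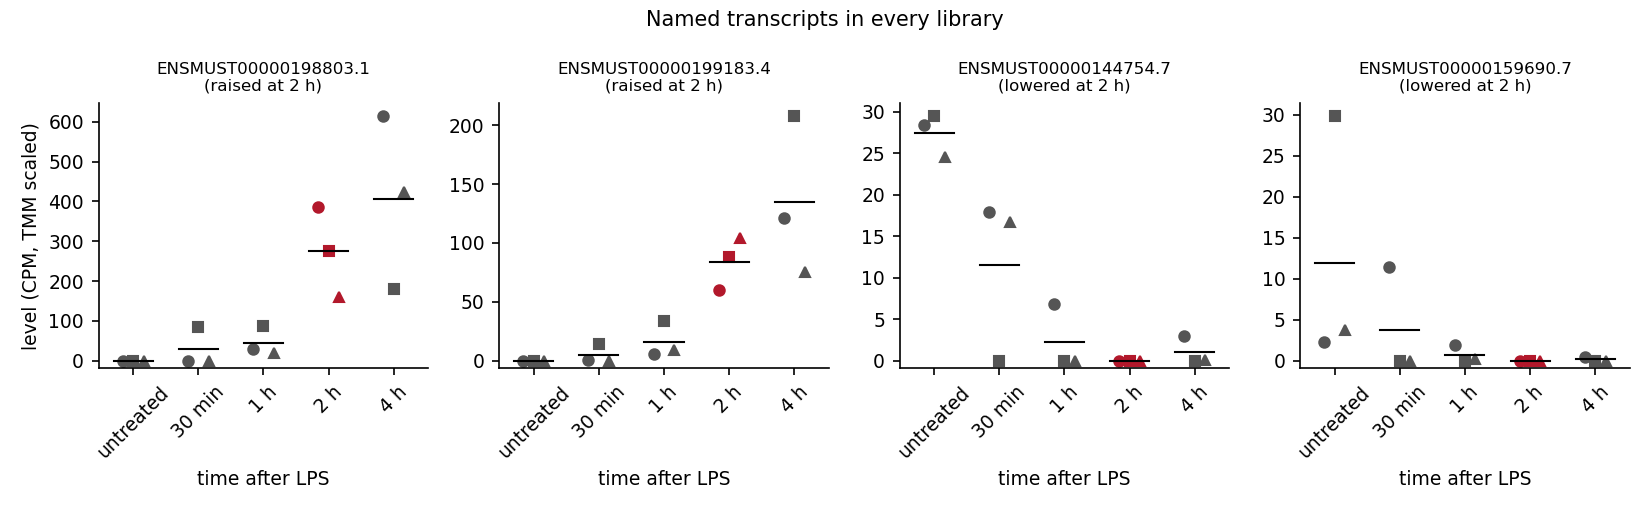
Levels of the named transcripts in every library, in CPM, by time after LPS; circles, squares and triangles are replicates 1, 2 and 3, bars are means of 3 libraries, and the 2 h libraries are red. ENSMUST00000198803.1 and ENSMUST00000199183.4 were at 0 in untreated cells, and ENSMUST00000144754.7 and ENSMUST00000159690.7 at 0 at 2 h.

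The next question is how much of the 2 h response was new since 1 h. Of the raised transcripts, 2093 were called at 2 h but at neither 30 min nor 1 h, against untreated cells, and 871 had been called before. Calls against untreated cells numbered 423 (0.916%) raised and 41 (0.0888%) lowered at 30 min, and 1354 (2.93%) raised and 448 (0.970%) lowered at 1 h. All of these comparisons share the same untreated libraries. Single 30 min libraries were not left out in turn, and their part in these numbers was not tested. The 2093 first raised at 2 h had medians on the log2 scale, relative to untreated cells, of 0.32 (30 min), 0.66 (1 h), 2.15 (2 h) and 2.32 (4 h), or 0.31, 0.65, 2.14 and 2.31 at the bound. The 871 called earlier had 1.92, 2.91, 2.94 and 2.68 (1.89, 2.86, 2.94 and 2.67 at the bound). The sets were divided by their calls at 30 min and 1 h, which fixes low medians there in the first set and high ones in the second. In the direct test of 2 h against 1 h, 825 of the 2093 were raised (39.4%, compared with 2.69% of all tested) and 0 lowered, with a median of 1.44 on the log2 scale. This test shares the 2 h and 1 h libraries with the choice of the set.

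Shares of the counts describe the same sets. Together the 2093 transcripts held 23.1%, 23.8% and 18.6% of the counts at 2 h, against 9.52%, 9.46% and 7.36% in untreated cells. Their share was 8.93% ± 1.08 after 30 min, 9.96% ± 1.59 after 1 h and 27.2% ± 2.7 after 4 h (SD, n = 3). The 871 transcripts raised earlier held 10.49% ± 4.33 after 30 min, 14.8% ± 2.7 after 1 h, 14.2% ± 1.6 after 2 h and 13.7% ± 1.7 after 4 h, against 3.25% ± 0.39 in untreated cells. These sets were called from the same libraries, so that their shares in untreated cells and at 30 min, 1 h and 2 h follow in part from the selection. The plot of shares is a description of them.

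**Figure D3:**
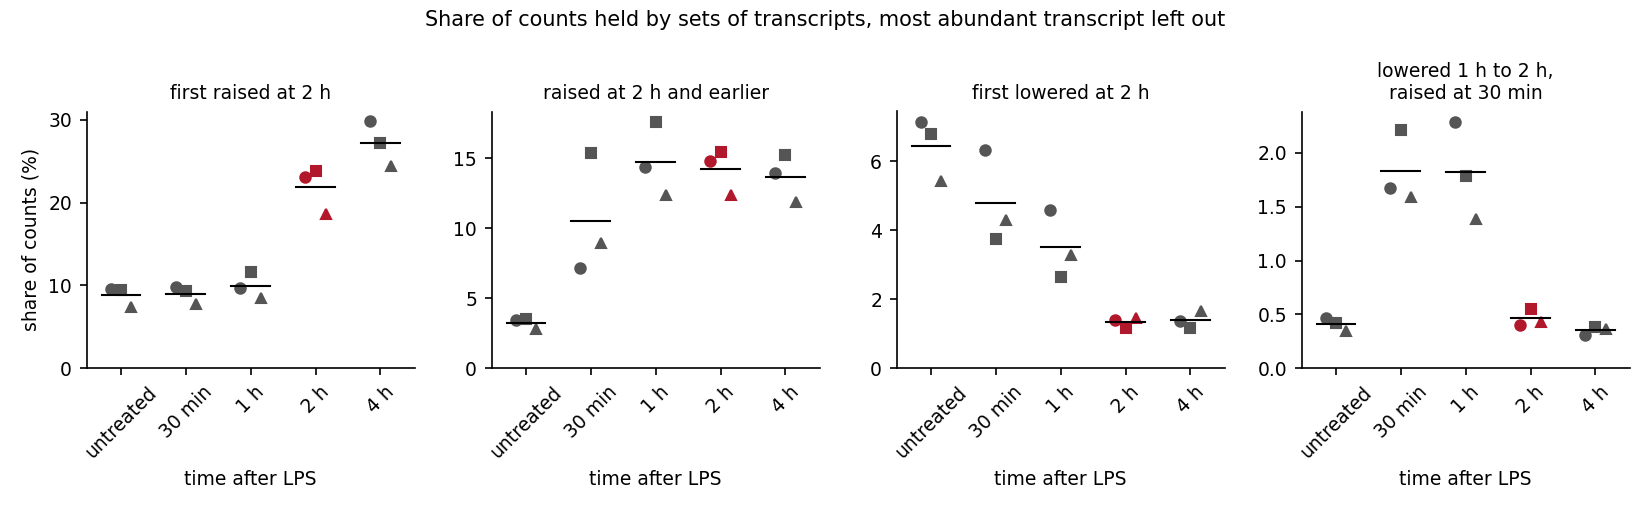
Share of the counts of each library, in percent, held by each of 4 sets of transcripts, with the most abundant transcript left out, by time after LPS; symbols are replicates 1 to 3, bars are means of 3 libraries, and the 2 h libraries are red. Transcripts first raised at 2 h held 18.6% to 23.8% at 2 h and 7.36% to 9.52% in untreated cells.

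A direct test of 2 h against 1 h has no untreated library in either group, although those add to the shared estimate of spread. It called 1242 transcripts raised (2.69% of those tested) and 701 lowered (1.52%), with medians on the log2 scale of 2.28 and -1.97 (2.26 and -1.95 at the bound). These counts depended on single libraries. They were 340 to 983 raised and 96 to 513 lowered when 2 h, 1 h or untreated libraries were left out in turn. The lowest came without 1 h replicate 1 and the highest without untreated replicate 2. They were 370 and 107 without 2 h replicate 2, 533 and 117 without 2 h replicate 1, and 765 and 387 without 2 h replicate 3. Leaving out 1 h replicate 2 gave 448 and 227, and leaving out 1 h replicate 3 gave 404 and 217. With no replicate block, so without the pairing by number, 150 and 45 were called. The comparisons of 30 min and of 4 h with untreated cells share no library with it, although they come from the same fit. Among the 1242 that rose after 1 h, 933 (75.1%) were raised at 4 h against untreated cells, compared with 8.87% of all transcripts tested, and 5 were lowered (0.403%, compared with 6.27%). At 30 min 9 of them were raised (0.725%, compared with 0.916%) and 6 lowered (0.483%, compared with 0.0888%). Their median log2 fold change was -0.07 at 30 min (-0.08 at the bound) and 2.37 at 4 h. At 1 h their median was -0.25, with 50 raised (4.03%, compared with 2.93% of all tested) and 75 lowered (6.04%, compared with 0.970%). At 2 h 876 were raised against untreated cells (70.5%, compared with 6.42%). The 1 h and 2 h values share libraries with the test that chose the set. Transcripts that rose between 1 h and 2 h were thus, at the median, close to untreated levels at 30 min and mostly high at 4 h. Some of them had been lowered at 1 h. The share raised at 4 h lay between 60.8% and 90% over the alternative fits that gave one.

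These 1242 transcripts held 16.5%, 16.03% and 11.6% of the counts at 2 h, against 4.60%, 4.09% and 3.17% at 1 h. In untreated cells they held 5.60%, 4.86% and 3.84%, and at 4 h 23.3%, 20.5% and 17.8%. The 4 h and untreated libraries, which are in neither group of the test that chose them but share its estimate of the spread, did not overlap. Replicate 3 was the lowest of the 3 libraries at each of these times.

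Transcripts that fell between 1 h and 2 h were of more than one kind. Of the 701, 303 were lowered at 4 h against untreated cells (43.2%, compared with 6.27% of all tested), 35 were raised there (4.99%, compared with 8.87%), and 80 had been raised at 30 min (11.4%, compared with 0.916%). These 80 had held 1.67%, 2.21% and 1.59% of the counts at 30 min and 2.29%, 1.78% and 1.39% at 1 h. At 2 h they held 0.404%, 0.554% and 0.428%, against 0.468%, 0.422% and 0.341% in untreated cells, and the ranges of 2 h and untreated libraries overlapped. At 2 h 10 of these 80 were raised against untreated cells (12.5%, compared with 6.42% of all tested) and 0 lowered (compared with 3.06%). At 4 h 19 were raised (23.8%, compared with 8.87%) and 2 lowered (2.5%, compared with 6.27%). The 80 were picked by a call against the untreated libraries, which favours low levels there. Their values against untreated cells follow in part from that choice. The share of the 701 lowered at 4 h lay between 32.5% and 65.6% over the alternative fits that gave one.

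The other 621 had not been called raised at 30 min, which set them apart. That split used the untreated libraries too, so values of the 621 against untreated cells, also at 4 h, follow in part from it. Against untreated cells their medians on the log2 scale were 0.33 (30 min), 0.52 (1 h), -1.31 (2 h) and -1.23 (4 h). At 1 h 87 of the 621 were raised (14%, compared with 2.93% of all tested) and 7 lowered (1.13%, compared with 0.970%). Part of this set was thus called raised at 1 h before it fell. The choice of transcripts higher at 1 h than at 2 h favours such calls. The values at 1 h and 2 h share libraries with the test that chose the 621. At 2 h 321 of them were lowered against untreated cells (51.7%, compared with 3.06% of all tested) and 1 was raised (0.161%, compared with 6.42%). At 4 h 301 were lowered (48.5%, compared with 6.27%) and 16 raised (2.58%, compared with 8.87%). They held 1.35%, 1.13% and 1.45% of the counts at 2 h, against 4.35%, 3.97% and 3.34% in untreated cells. The highest 2 h library stood below the lowest untreated one.

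Lowered transcripts at 2 h were mostly new calls. Of the 1412, 1245 were lowered at neither 30 min nor 1 h and 167 had been called before. The 1245 had medians on the log2 scale, against untreated cells, of -0.32 (30 min), -0.79 (1 h), -2.10 (2 h; -2.07 at the bound) and -1.91 (4 h). The choice of the set fixes medians of small size at 30 min and 1 h. Against 1 h directly, 314 of the 1245 were lowered at 2 h (25.2%, compared with 1.52% of all tested) and 0 raised (compared with 2.69%), with a median of -1.33 (-1.28 at the bound). This test shares the 2 h and 1 h libraries with the choice of the set, so that few rises could be found. They held 1.39%, 1.15% and 1.46% of the counts at 2 h, against 7.14%, 6.78% and 5.42% in untreated cells. At 30 min the share was 4.78% ± 1.35 and at 1 h 3.51% ± 0.99 (SD, n = 3). The untreated libraries that chose the set are also those these shares are read against. At 4 h it was 1.40% ± 0.24, close to the 2 h mean of 1.33% ± 0.16. The 167 called earlier held 0.181% ± 0.020 at 2 h and 0.209% ± 0.030 at 1 h, against 0.951% ± 0.205 in untreated cells. Their medians were -0.94 (30 min), -1.91 (1 h), -2.01 (2 h) and -1.93 (4 h).

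Fewer transcripts were expected to be detected at 2 h once depth was matched. Before matching, 53257, 51100 and 55868 transcripts were detected at 2 h, against 60949, 56303 and 54854 in untreated cells. These ranges overlapped, pair 3 went the other way with a difference of 1014, and the exact permutation test gave a two-sided p of 0.2. To set the libraries at one depth, the number expected among 5032003 counts was computed for each library, with the most abundant transcript left out. It was 51277, 49559 and 52892 transcripts at 2 h, against 57785, 55256 and 54823 in untreated cells. The groups did not overlap, with 51243 ± 1667 at 2 h and 55954 ± 1600 in untreated cells (SD, n = 3; difference -4712, exact permutation test, two-sided p = 0.1, the smallest the design allows). The differences within same-numbered pairs were -6508, -5697 and -1931 transcripts, the smallest in pair 3 (exact paired p = 0.25, the smallest that 3 pairs allow). This number does not depend on the scaling, but it does depend on the share of counts taken by raised transcripts, and their part in it was not tested. Low numbers were not particular to 2 h. The 1 h libraries had 53167, 49924 and 52730 and the 4 h libraries 50085, 48146 and 51052.5, all below every untreated library. At 30 min the numbers were 56001, 48703 and 52330 (replicates 1, 2 and 3).

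**Figure D4:**
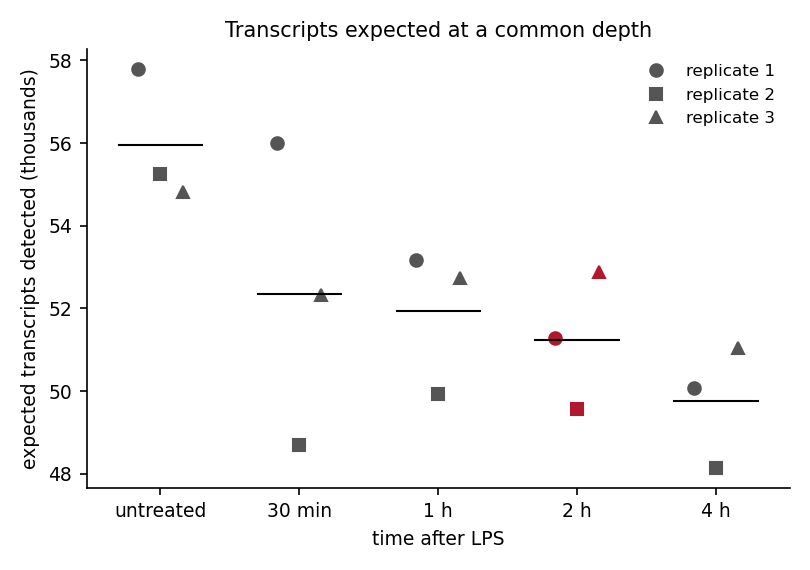
Transcripts expected to be detected in each library at a common depth of 5032003 counts, most abundant transcript left out, with the axis in units of 1000, by time after LPS; bars are means of 3 libraries, the 2 h libraries are red, and the vertical axis does not start at 0. All 2 h libraries lay below all untreated libraries, as did all 1 h and 4 h libraries.

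The shares of transcripts called were set out by level and by length. Levels were taken from the 30 min libraries, which are in neither of the groups compared, although they add to the estimate of the spread in the fit. Among 9367 transcripts under 1 CPM at 30 min, 3.29% were raised and 0.555% lowered at 2 h. Among 7322 with 10 to 30 CPM, 9.90% were raised and 5.64% lowered, and among 1212 with 100 CPM or more, 27.9% were raised and 5.53% lowered. Of the 6 bands of level, the lowered share was highest, at 7.63%, in that of 30 to 100 CPM. The part of test power, which grows with the counts, was not tested. The 30 min cells had also received LPS. Of the 2964 raised at 2 h, 290 were already raised at 30 min (9.78%, compared with 0.916% of all tested). An early rise moves a transcript to a higher band, and its part in these shares was not tested.

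Length was compared within transcripts of 10 to 100 CPM at 30 min, a level that was again taken after LPS. Of 781 transcripts under 1000 nt, 16.4% were raised and 4.61% lowered at 2 h. Of 2278 transcripts of 5000 nt and over, 8.60% were raised and 7.64% lowered. Within this band the raised share fell with each step of length, from 14.1% at 1000 to 2000 nt to 13.3% at 2000 to 3000 nt and 10.2% at 3000 to 5000 nt. The lowered share was 4.43%, 5.75% and 6.91% in these steps. The median log2 fold change was 0.40 in the shortest class and -0.09 in the longest, with quartiles of -0.20 and 1.12 and of -0.75 and 0.61, so that the classes overlapped widely. Over all transcripts tested, without the band of level, the raised share went the other way, with 5.01%, 6.12%, 6.79%, 7.23% and 8.54% from the shortest class to the longest, and the lowered share was 1.41%, 2.30%, 3.42%, 4.44% and 5.52%. Longer transcripts had higher levels there too (medians of 1.56 CPM in the shortest and 17.6 CPM in the longest class). Within the band, and with library size without the most abundant transcript, the shares were 10.4% raised and 7.43% lowered under 1000 nt, and 4.57% raised and 20.5% lowered at 5000 nt and over. That 20.5% was the highest of 22 alternative fits, and the lowest was 0. Leaving out single 2 h, untreated or 1 h libraries gave 2.06% to 6.76% there, and 1.28% to 3.33% lowered under 1000 nt. With no replicate block, 5.51% were raised and 0.512% lowered under 1000 nt. At 5000 nt and over, 2.77% were then raised and 1.54% lowered. Lengths are those of the annotated spliced transcripts, not of the genes, and the levels of the longer classes were higher (medians of 14.9 CPM in the shortest and 31.1 CPM in the longest).

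**Figure D5:**
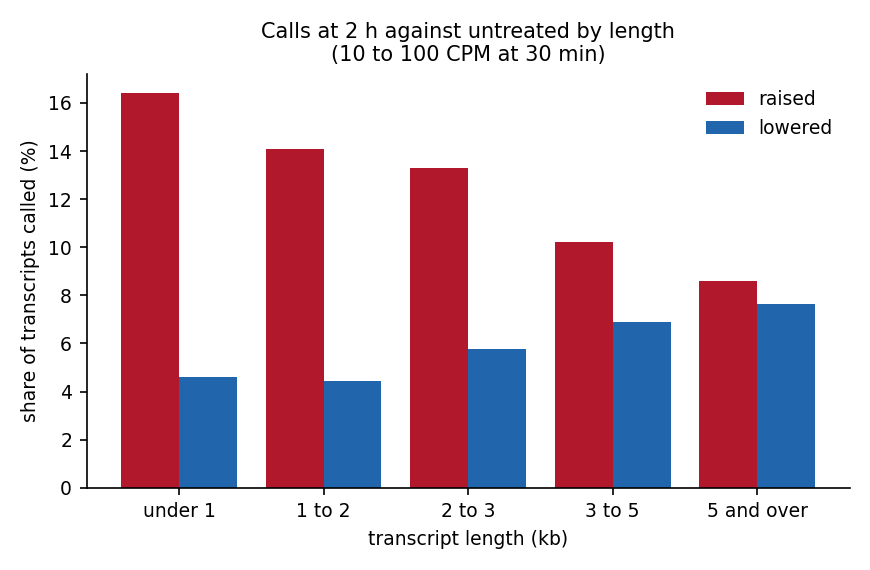
Share of transcripts, in percent, called raised (red) or lowered (blue) at 2 h against untreated in 5 classes of length, among transcripts with 10 to 100 CPM at 30 min. The raised share was 16.4% in the shortest class and 8.60% in the longest, and the lowered share 4.61% and 7.64%.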

How the data were processed

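Chromatin-associated RNA of 15 libraries in 5 groups was analysed. The authors deposited, for each library, estimated counts and TPM per annotated transcript, made with kallisto 0.44.0 per the submitters' processing notes. Its transcript annotation and genome build are not stated in the labels or the files, and libraries were unstranded per the labels, so reads of overlapping antisense transcripts cannot be told apart. Deposited estimated counts, 7537521 to 11892599 per library, were rounded and tested with edgeR 4.0.16 (R 4.3.3). TMM scaling, filterByExpr (minimum count 10, minimum total 15), a term for each group and the replicate number as a block were used in one fit of all libraries, with Benjamini-Hochberg adjustment. The planned unit, the gene, needed a pairing of identifiers that was not to hand, so the transcript was used. Deposited TPM entered limma 3.58.1 on the log2 scale, and DESeq2 1.42.0 was another alternative. The block was set by the plan of the comparison. Deviations of log2 CPM from group means correlated positively in all 30 same-numbered pairs (0.216 to 0.483, and 0.285 to 0.441 for 2 h with untreated). Libraries of unlike number were not set beside them. Folds against a group at 0 are bounds computed from 3 counts per library, which cover counting error only. The SE of a log2 fold change is its size over the square root of the F statistic. The scripts were tested on simulated data. The comparison, members and lists were chosen with earlier results of these data known. The rule for named transcripts took the 2 largest rises and the 2 largest falls by fitted log2 fold change among called transcripts with at least 10 CPM and one direction in all pairs. ENSMUST00000217116.1 falls outside that rule and was chosen after its level was seen. Counts of calls are of transcripts, not genes.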

Additional observations from a re-analysis of the deposited data

How the results depend on the processing

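Leaving out single libraries kept the fall in expected transcripts (-5537 to -3797). Every alternative kept the directions of the 4 named transcripts, but this is no support for them. Each was at 0 in every untreated or every 2 h library, so its direction could hardly turn. Their calls were lost in 1 to 14 of 22 alternative fits. Counts of calls moved by more than 1.5 times under many settings; unless stated, the cause was not tested. The counts in the main fit were 2964 raised and 1412 lowered at 2 h, 1242 and 701 from 1 h to 2 h, and 2093 and 1245 first called at 2 h. With no replicate block they were 911 and 273, 150 and 45, and 649 and 262, of which 910 raised and 273 lowered at 2 h were also called with the pairing by replicate number. With library size alone, 1563 were raised at 2 h, 711 and 388 were called from 1 h to 2 h, and 1073 were first raised. With library size without the most abundant transcript, 1788 and 3732 were called at 2 h, and 1206 and 3062 were first called. With no filter beyond 1 count (83649 tested), 817 were lowered, 377 from 1 h to 2 h, and 774 first. Only the 6 libraries compared gave 0 calls in each direction for both contrasts in edgeR, with 9163 transcripts at an unadjusted p under 0.05 for 2 h against untreated. DESeq2 called 4694 and 4085 at 2 h, 2812 and 2478 from 1 h to 2 h, and 2931 first lowered. Limma on log2(TPM + 1) called 5325 lowered and 3820 first lowered, and on log2(TPM + 0.1) 1932 and 3370 at 2 h and 1234 and 2923 first. Leaving out single libraries of the 2 h, untreated or 1 h groups gave 1287 to 2741 raised and 366 to 1155 lowered, 340 to 983 and 96 to 513 from 1 h to 2 h, and 1081 to 2211 and 335 to 1126 first called. No single 30 min or 4 h library was left out, although first calls depend on the calls at 30 min. The 871 transcripts raised earlier held 7.13%, 15.4% and 8.96% of the counts in 30 min replicates 1, 2 and 3. The part of 30 min replicate 2 in the first calls was not tested. The lowest 2 h counts, 1287 and 366, came without untreated replicate 2. They were 1665 and 381 without 2 h replicate 1, 1772 and 471 without 2 h replicate 2, 1550 and 575 without untreated replicate 1, and 1761 and 793 without untreated replicate 3. Leaving out both libraries of a number, an alternative chosen after seeing the data, gave, for replicates 1, 2 and 3, 837, 795 and 1372 raised and 153, 154 and 555 lowered. From 1 h to 2 h it gave 314, 215 and 508 raised and 56, 40 and 205 lowered, and first calls of 652, 782 and 1142 raised and 142, 154 and 537 lowered. The difference in the share of the most abundant transcript was -9.65 to 2.90 percentage points without single libraries, and that of the 10 most abundant -7.80 to 4.05 (main -2.34), with turns without untreated replicate 3 (2.90 and 4.05) and, for the 10, without 2 h replicate 1 (0.408) or 3 (0.375). Gene sums and classes of transcripts were not run. A test with 3 libraries a group limits calls at low counts.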

Other observations

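The rise at 2 h was spread over many transcripts. The 10 raised transcripts with the largest gain in mean CPM held 11.3% of the summed gain of the 2964, and 196 transcripts made up 50% of it. For the 1412 lowered transcripts the 10 largest losses held 9.64% of the summed loss, and 180 made up 50%. The summed gain was 235400 CPM and the summed loss 30220 CPM with TMM scaling. Among the 100 transcripts with the highest mean TPM over all 15 libraries, 33 were raised at 2 h and 0 lowered, compared with 6.42% and 3.06% of all tested (edgeR). Abundant transcripts are the closer comparison. Among 1265 with a mean of 100 CPM or more over the same libraries, 40.7% were raised and 2.92% lowered, so the 33 are not read as an excess. The mean over all libraries includes the 2 h libraries themselves, so that this choice favours raised transcripts.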
